A study of Mus musculus with 12 samples.

Results

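The genes described here encode 10 feedback inhibitors of the RAS-ERK pathway, chosen by symbol from a table of 24411 mouse genes. They are the dual-specificity phosphatase genes Dusp1, Dusp2, Dusp4, Dusp5 and Dusp6, the Sprouty genes Spry1, Spry2 and Spry4, and the Sprouty-related genes Spred1 and Spred2. All 10 had a row in the table and all 10 passed the filter on low counts, each with counts in every library.

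RNA was sequenced from HoxB8 cells, mouse bone marrow progenitors held immature by a Hoxb8 that needs estrogen, 24 h after estrogen was withdrawn. Every group carried both vectors, pMIG and pMICH, so the controls were transduced as well. The groups were Asxl1-MT2/T618I (pMIG with Asxl1-MT2, a truncated Asxl1, and pMICH with CSF3R carrying the T618I change), Asxl1-MT2/Empty (truncated Asxl1 and an empty pMICH), Empty/T618I (an empty pMIG and the mutant receptor) and Empty/Empty (both vectors empty), with 3 libraries each. The constructs were overexpressed from retroviral vectors beside the cells' own genes. All cells had been kept with 10% serum, 0.6 uM estrogen before its withdrawal and 2% medium conditioned with stem cell factor, which signals through the receptor Kit. The labels do not tie the 3 libraries of a group to separate cultures. The p-values therefore reflect only library-to-library spread, which may be technical.

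Growth factor and cytokine receptors, Kit and CSF3R among them, switch on the small GTPase RAS, which starts a relay of the kinases RAF, MEK and ERK. Active ERK enters the nucleus and induces genes of growth and differentiation, and with them its own inhibitors. The Dusp proteins are phosphatases that remove the activating phosphates from MAP kinases, Sprouty proteins act near the receptor and block signalling to RAS and RAF, and Spred proteins bring neurofibromin, a protein that turns RAS off, to the membrane. Because ERK induces several of them, their transcripts are often measured as a sign of pathway output.

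Library totals lay between 9341984 and 10252291 counts, and no library was a copy of another within counting noise. Asxl1 was at 116 to 167 CPM (counts scaled to library size, per 1e+06) in the 6 libraries without Asxl1-MT2. It was higher in the 6 libraries labelled Asxl1-MT2, but unequally so. There it ran from 1678 to 1833 CPM beside an empty pMICH and from only 919 to 1086 CPM beside T618I. Csf3r ran from 232 to 337 CPM in the 6 libraries without T618I, from 386 to 456 CPM with T618I alone and from 967 to 1688 CPM with both constructs. Counts per gene symbol do not separate a construct's transcripts from those of the cells' own gene. Groups sharing a construct thus differed in these transcripts, which need not be a difference in construct level. What this adds to the differences below was not tested. Socs3, a feedback inhibitor that CSF3R induces, was at 151 to 264 CPM in the 6 libraries labelled T618I and at 10.4 to 13.8 CPM in the others. The library titled Empty/Empty 3 has a genotype label that names T618I. Socs3 was at 11.9 to 13.8 CPM in the 3 Empty/Empty columns, so none of them had the Socs3 level of the libraries labelled T618I. The table's column letters A to C are not tied to the title numbers, so the fits were repeated without each of the Empty/Empty columns. The scaling factors of Asxl1-MT2/T618I, at 0.919 to 0.959, lay below those of the other 9 libraries, at 1.01 to 1.03. Scaling by library totals instead, tried after the data were seen, moved the median log2 fold change of all genes to -0.12 for Asxl1-MT2/T618I against Empty/T618I, and the share of calls that were higher to 39.2%, against 57.8% with the scaling factors. For Asxl1-MT2/T618I against Asxl1-MT2/Empty the median moved to -0.12 and that share to 40.5%, against 54.1%, and for the interaction the share moved to 48.5%, against 71.9%. Fold changes below are log2 values with their standard error (SE), the call threshold was an adjusted p of 0.05, and the share of all 11578 tested genes called is given beside the first count in each comparison.

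Dusp1, Dusp5 and Dusp6 were the members for which a difference in the T618I response between cells with and without truncated Asxl1 passed the threshold. In cells with both constructs all 3 phosphatase genes were higher than in cells with either construct alone, and no Sprouty or Spred gene was called higher in either comparison. The interaction, that is, the log2 difference made by T618I in Asxl1-MT2 cells minus the same difference in cells with the empty vector, passed for these 3 of the 10 members, all in the positive direction, against 19.6% of all tested genes in either direction, 14.1% in the positive and 5.51% in the negative one. All 3 also passed under each of the 18 alternative settings and left-out libraries. A member that did not pass is not thereby shown to respond equally in both backgrounds. The members had been chosen with earlier results of these data known, so the counts are descriptions.

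Dusp1 (chromosome 17, 26505590 to 26562128, GRCm38), an immediate early gene whose nuclear phosphatase acts on p38, JNK and ERK, had the largest rise among the members when T618I was added to Asxl1-MT2. It was at 10.7, 10.9 and 10.7 CPM in Asxl1-MT2/T618I, 3.26, 3.06 and 3.29 CPM in Asxl1-MT2/Empty, 5.58, 4.96 and 3.13 CPM in Empty/T618I and 2.72, 3.38 and 2.99 CPM in Empty/Empty. The 3 libraries with both constructs lay close together and far above the other 9, whose groups overlapped for the most part. T618I added to Asxl1-MT2 raised Dusp1 by 1.75 ± 0.197 on the log2 scale, that is 3.35-fold (edgeR adjusted p = 1.2e-06), and Asxl1-MT2 added to T618I raised it by 1.23 ± 0.187 (edgeR adjusted p = 5.2e-05). The interaction was 1.15 ± 0.296 (edgeR adjusted p = 0.0112).

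Dusp5 (chromosome 19, 53529109 to 53542431), which encodes a nuclear phosphatase specific for ERK, had nearly the same shape. Its levels were 10.7, 8.67 and 7.54 CPM in Asxl1-MT2/T618I, 3.36, 5.13 and 4.29 CPM in Asxl1-MT2/Empty, 2.60, 3.05 and 4.17 CPM in Empty/T618I and 3.32, 3.48 and 3.51 CPM in Empty/Empty. Again the libraries with both constructs did not overlap with any other, and the 3 remaining groups overlapped with each other. Dusp5 was higher by 1.46 ± 0.217 against Empty/T618I (edgeR adjusted p = 4.21e-05) and by 1.07 ± 0.209 against Asxl1-MT2/Empty (edgeR adjusted p = 0.000413), with an interaction of 1.15 ± 0.320 (edgeR adjusted p = 0.0181, and between 0.009 and 0.0499 over the alternatives). T618I alone made no difference that passed, with a log2 fold change of -0.08 and a 95% interval from -0.59 to 0.43.

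Dusp6 (chromosome 10, 99263231 to 99267489) encodes the cytoplasmic phosphatase specific for ERK and is among the most used transcripts of ERK output. Here cells with a single construct stood lowest. Its levels were 43.8, 35.5 and 26.6 CPM in Asxl1-MT2/T618I, 17.3, 20.6 and 22.4 CPM in Asxl1-MT2/Empty, 23.6, 18.3 and 24.0 CPM in Empty/T618I and 30.9, 29.1 and 33.6 CPM in Empty/Empty. Both single-construct groups lay wholly below Empty/Empty, whereas the libraries with both constructs lay above either single-construct group and on both sides of Empty/Empty. Dusp6 fell by 0.51 ± 0.158 with T618I alone (edgeR adjusted p = 0.0194), a call lost without Empty/Empty library C (edgeR adjusted p = 0.0698) or Empty/T618I library B (edgeR adjusted p = 0.105). With Asxl1-MT2 alone the log2 fold change was -0.64 ± 0.160, just short of the threshold (edgeR adjusted p = 0.0512, and between 0.00359 with no filter on low counts and 0.279 without Asxl1-MT2/Empty library A). Adding T618I to Asxl1-MT2 raised Dusp6 by 0.81 ± 0.159 (edgeR adjusted p = 0.000416) and adding Asxl1-MT2 to T618I raised it by 0.69 ± 0.157 (edgeR adjusted p = 0.00202). Its interaction of 1.32 ± 0.224 was the largest of the 10 members (edgeR adjusted p = 0.000524).

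Within Asxl1-MT2/T618I, library A had the highest and library C the lowest level of Dusp5 and Dusp6, and also of Csf3r (1688, 1334 and 967 CPM) and Socs3 (264, 228 and 196 CPM). Dusp1 did not vary with them, at 10.7 to 10.9 CPM. The other groups did not show that order: library C had the lowest Csf3r there too, at 253 CPM in Asxl1-MT2/Empty, 386 in Empty/T618I and 232 in Empty/Empty, but the highest Dusp6. With 3 libraries a group no test of such a relation was made.

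**Figure D1:**
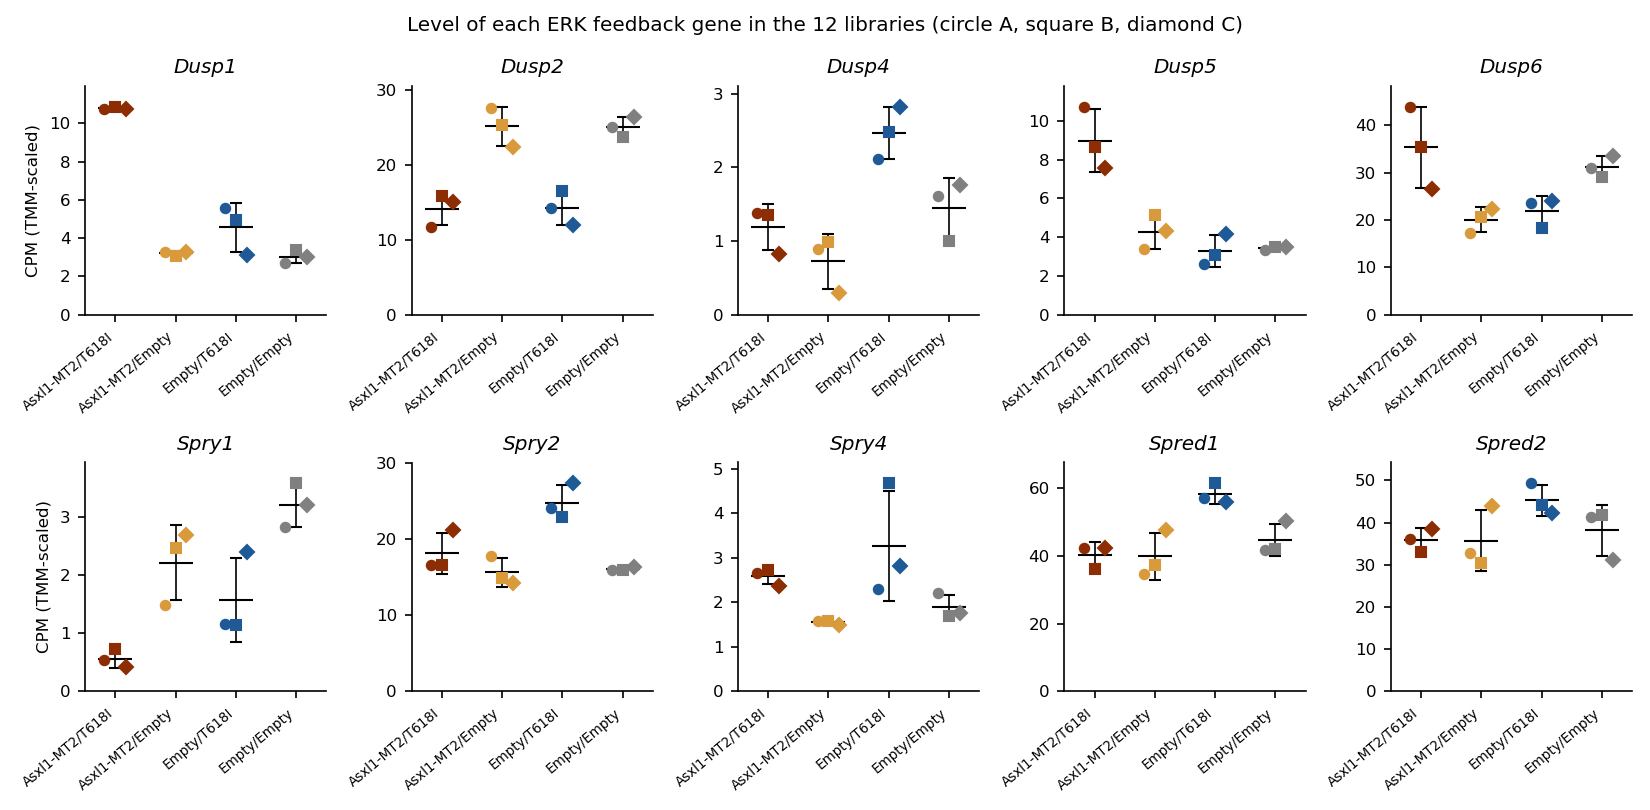
Level of each of the 10 genes in CPM (y axis, from 0) in the 12 libraries, grouped by construct (x axis), with circles, squares and diamonds for libraries A, B and C, horizontal bars for group means and whiskers for SD of 3 libraries. The Asxl1-MT2/T618I libraries stand above all others for Dusp1 (10.7 to 10.9 CPM) and Dusp5 (7.54 to 10.7 CPM) and below all others for Spry1 (0.413 to 0.731 CPM).

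The stretches of DNA before the starts of Dusp1, Dusp5 and Dusp6 are shown. These genes were higher in cells with both constructs than in cells with either construct alone, though Dusp6 was not wholly above Empty/Empty. Each runs from 220 to 51 bases before the RefSeq gene start of GRCm38.p6, 170 bases in all, 5′ to 3′ on the gene's strand, and capitals mark matches to the motifs searched. The Dusp1 stretch is chr17:26508523-26508692 on the minus strand, the Dusp5 stretch chr19:53528925-53529094 on the plus strand and the Dusp6 stretch chr10:99263011-99263180 on the plus strand. The GENCODE span of Dusp1 given above includes a longer transcript that starts upstream on the minus strand, whereas the RefSeq gene starts at 26508472, and the stretch shown is before that RefSeq start.
Dusp1: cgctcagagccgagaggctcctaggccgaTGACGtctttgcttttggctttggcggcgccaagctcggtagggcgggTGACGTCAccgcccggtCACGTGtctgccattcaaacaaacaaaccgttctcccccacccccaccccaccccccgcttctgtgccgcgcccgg
Dusp5: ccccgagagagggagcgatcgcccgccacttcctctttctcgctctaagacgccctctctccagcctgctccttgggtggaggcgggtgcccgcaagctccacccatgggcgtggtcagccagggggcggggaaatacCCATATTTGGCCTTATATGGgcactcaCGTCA
Dusp6: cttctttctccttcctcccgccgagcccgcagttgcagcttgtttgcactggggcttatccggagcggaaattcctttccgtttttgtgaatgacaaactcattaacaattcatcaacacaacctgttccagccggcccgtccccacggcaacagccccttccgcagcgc

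RefSeq promoters were matched for 8 of the 10 members (all except Dusp4 and Spry4), and 7 motifs were searched on both strands in the 250 bases before each start. TGACG, the core of the cyclic AMP response element, matched at 3 places in Dusp1, a pair of them overlapping on opposite strands to form the full palindrome, and at 1 place each in Dusp5 and Spred2. It was present in 17.8% of all 32851 promoter windows of that length. A form of the CArG box bound by serum response factor (CC, any base, TAT, any 2 bases, GG) matched at 2 adjoining places in Dusp5 (CCATATTTGG and CCTTATATGG, 82 to 63 bases before the start) and in 1.38% of all windows. The E-box CACGTG, which Myc and Max bind, matched in Dusp1 and Dusp2 and in 6.02% of windows. The other 4 motifs had no match in the 8 windows. The STAT motif TTCNNNGAA was present in 7.02% of all windows. For AP-1, TGACTCA was present in 4.46%. For ETS factors, CCGGAAG was present in 6.91%. For GATA factors, AGATAA was present in 9.99%. A match is a run of letters, and no match says only that these letters are not in the window. The motifs were chosen with the promoters in view, so the shares of all windows are descriptions and do not test whether a match is unusual. Binding was not measured.

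**Figure D2:**
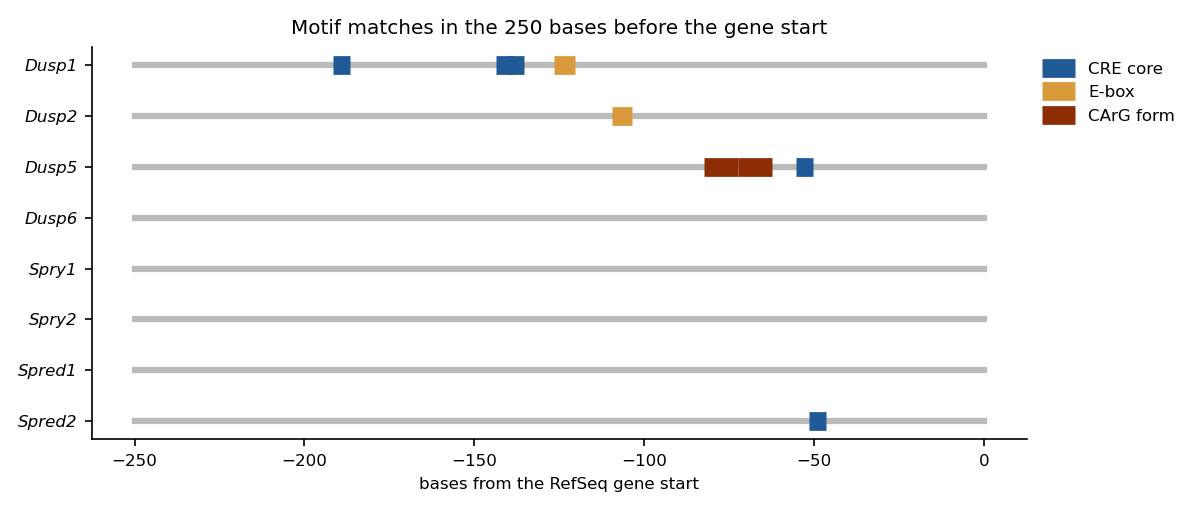
Positions of motif matches in the 250 bases before the RefSeq gene start (x axis, bases from the start) for the 8 members with a promoter in the RefSeq table (rows), with blue for TGACG, the core of the cyclic AMP response element (CRE), orange for the E-box and brown for the CArG form. Dusp1 holds 3 matches to that core and Dusp5 the adjoining CArG matches 82 to 63 bases before the start, while Dusp6, Spry1, Spry2 and Spred1 hold none of the motifs searched.

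Dusp2 and Dusp4, the other 2 phosphatase genes, did not follow this shape. Dusp2 (chromosome 2, 127336159 to 127338376), a nuclear phosphatase gene of activated blood cells that acts on ERK and p38, was at 11.7, 15.8 and 15.0 CPM in Asxl1-MT2/T618I, 27.6, 25.4 and 22.4 CPM in Asxl1-MT2/Empty, 14.2, 16.5 and 12 CPM in Empty/T618I and 25.0, 23.7 and 26.4 CPM in Empty/Empty. The 6 libraries with T618I all lay below the 6 without it, whether or not truncated Asxl1 was present. It fell by 0.83 ± 0.139 when T618I was added to Asxl1-MT2 (edgeR adjusted p = 9.9e-05) and by 0.81 ± 0.138 with T618I alone (edgeR adjusted p = 0.000186). The interaction was -0.02, with a 95% interval from -0.43 to 0.40, which bounds how far the fall with T618I could differ between the backgrounds.

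Dusp4, a nuclear phosphatase gene induced by ERK, was at the edge of detection. It had 13, 13 and 8 counts in Asxl1-MT2/T618I, 9, 10 and 3 in Asxl1-MT2/Empty, 22, 26 and 27 in Empty/T618I and 16, 10 and 17 in Empty/Empty. The Empty/T618I libraries were the highest and did not overlap with any other group. The call was a fall of 1.05 ± 0.353 in Asxl1-MT2/T618I against Empty/T618I (edgeR adjusted p = 0.0232), and it was lost without Empty/T618I library C (edgeR adjusted p = 0.0626) or Asxl1-MT2/T618I library C (edgeR adjusted p = 0.0839). With T618I alone the log2 fold change was 0.76 ± 0.338 and did not pass (edgeR adjusted p = 0.0963).

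Spry1 (chromosome 3, 37639947 to 37644598), the Sprouty gene known as an inhibitor of receptor tyrosine kinase signalling in kidney and blood vessel growth, was lowest in cells with both constructs. It was at 0.531, 0.731 and 0.413 CPM in Asxl1-MT2/T618I, from 5, 7 and 4 counts. Levels were 1.48, 2.47 and 2.69 CPM in Asxl1-MT2/Empty, 1.15, 1.15 and 2.40 CPM in Empty/T618I and 2.82, 3.58 and 3.20 CPM in Empty/Empty. The libraries with both constructs lay below all others and those with neither lay above all others. Spry1 fell by 1.96 ± 0.414 when T618I was added to Asxl1-MT2 (edgeR adjusted p = 0.000833) and by 1.45 ± 0.439 when Asxl1-MT2 was added to T618I (edgeR adjusted p = 0.0128). The second of these calls was lost without Empty/T618I library C (edgeR adjusted p = 0.078). The fall of 1.04 ± 0.324 with T618I alone (edgeR adjusted p = 0.0196) was lost without Empty/Empty library B (edgeR adjusted p = 0.0798) or Empty/T618I library A or B (edgeR adjusted p = 0.0962 and 0.0885).

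Spry2 (chromosome 14, 105891947 to 105896819), which binds the adaptor Grb2 and the ubiquitin ligase Cbl, was highest with T618I alone. Its levels were 16.6, 16.6 and 21.2 CPM in Asxl1-MT2/T618I, 17.8, 14.9 and 14.2 CPM in Asxl1-MT2/Empty, 24.1, 22.9 and 27.3 CPM in Empty/T618I and 15.9, 15.9 and 16.3 CPM in Empty/Empty. The Empty/T618I libraries lay above the other 9. Asxl1-MT2/T618I and Empty/Empty did not overlap, and Asxl1-MT2/Empty overlapped with both. Spry2 rose by 0.63 ± 0.127 with T618I alone (edgeR adjusted p = 0.0009) and fell by 0.45 ± 0.126 when Asxl1-MT2 was added to T618I (edgeR adjusted p = 0.00803). With T618I added to Asxl1-MT2 it had a log2 fold change of 0.21 ± 0.131 (edgeR adjusted p = 0.186). The interaction of -0.41 ± 0.182 did not pass (edgeR adjusted p = 0.121), although it did without Asxl1-MT2/T618I library C (edgeR adjusted p = 0.0371).

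Spred1 (chromosome 2, 117121374 to 117182279), whose product recruits neurofibromin and whose loss causes Legius syndrome in humans, was also highest with T618I alone. It was at 42.5, 36.0 and 42.5 CPM in Asxl1-MT2/T618I, 34.6, 37.3 and 47.6 CPM in Asxl1-MT2/Empty, 57.1, 61.5 and 56.0 CPM in Empty/T618I and 41.7, 42.1 and 50.2 CPM in Empty/Empty. Again Empty/T618I stood above the other groups, which overlapped. Spred1 fell by 0.53 ± 0.117 when Asxl1-MT2 was added to T618I (edgeR adjusted p = 0.00148). Its rise of 0.38 ± 0.116 with T618I alone (edgeR adjusted p = 0.0167) depended on Empty/Empty libraries A and B, without which edgeR gave adjusted p = 0.0695 and 0.0605, and on Empty/T618I library B (edgeR adjusted p = 0.0522 without it). The interaction was -0.36 ± 0.166 (edgeR adjusted p = 0.133).

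Spry4 and Spred2 varied least clearly. Spry4, an inhibitor of RAS activation, ran from 2.38 to 2.72 CPM in Asxl1-MT2/T618I, 1.497 to 1.58 CPM in Asxl1-MT2/Empty, 2.31 to 4.68 CPM in Empty/T618I and 1.69 to 2.21 CPM in Empty/Empty. Every library with T618I lay above every library without it, yet the rise of 0.79 ± 0.283 with T618I alone (edgeR adjusted p = 0.0396) rested on Empty/T618I library B, without which it was 0.45 (edgeR adjusted p = 0.267). That call was also lost without any of 5 other libraries, the 3 of Empty/Empty and Asxl1-MT2/Empty A and B (edgeR adjusted p = 0.0503 to 0.117), and by DESeq2 (adjusted p = 0.0761). With T618I added to Asxl1-MT2 the log2 fold change of Spry4 was 0.73 ± 0.303 (edgeR adjusted p = 0.0553). Spred2, a second partner of neurofibromin, was at 33.0 to 38.4 CPM in Asxl1-MT2/T618I, 30.5 to 43.9 CPM in Asxl1-MT2/Empty, 42.4 to 49.3 CPM in Empty/T618I and 31.2 to 41.8 CPM in Empty/Empty. It passed in no comparison, and the log2 fold change nearest to a call was -0.34 ± 0.136 in Asxl1-MT2/T618I against Empty/T618I (edgeR adjusted p = 0.0552), which passed under 8 of the 18 alternatives.

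Counted by comparison, 7 of the 10 members passed with T618I alone, 4 higher (Dusp1, Spry2, Spry4 and Spred1) and 3 lower (Dusp2, Dusp6 and Spry1), against 33.5% of all tested genes (17.6% higher and 15.9% lower). The libraries of 8 members did not overlap in that comparison, 5 wholly higher and 3 wholly lower, as for 44.6% of all genes. The rise of Dusp1, at 0.59 ± 0.217 (edgeR adjusted p = 0.044), did not survive leaving out any 1 of 9 libraries (all but the C columns of the groups other than Empty/Empty), with edgeR adjusted p up to 0.172. The count was 2 without Empty/T618I library B and 4, 3 and 4 when column A, B or C of Empty/Empty was left out. Dusp2 and Spry2 were the members that passed under all 18 alternatives. The median log2 fold change was 0.31 over the 10 members and 0.00365 over all tested genes. With Asxl1-MT2 alone, edgeR called 0 of 10 members, against 1.86% of tested genes (1.24% higher and 0.622% lower), with 2 members at an unadjusted p under 0.05 (Dusp4 and Dusp6) and 1 called by DESeq2 (Dusp6, adjusted p = 0.0138). The libraries of 4 members (Dusp4, Dusp6, Spry1 and Spry4) lay wholly below Empty/Empty in that comparison and those of none lay wholly above, and 15.9% of all tested genes had groups that did not overlap.

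When Asxl1-MT2 was added to T618I, 7 of 10 members passed, 3 higher (Dusp1, Dusp5 and Dusp6) and 4 lower (Dusp4, Spry1, Spry2 and Spred1), against 43.9% of tested genes (25.4% higher and 18.5% lower). The libraries of 8 members did not overlap, 3 wholly higher and 5 wholly lower, against 55.7% of all genes. By class, 3 of the 5 phosphatase genes rose and 1 fell, and 0 of the 5 Sprouty and Spred genes rose and 3 fell. The median log2 fold change was -0.34 over the 10 members and 0.01 over all genes tested. With T618I added to Asxl1-MT2, 5 of 10 passed, 3 higher (Dusp1, Dusp5 and Dusp6) and 2 lower (Dusp2 and Spry1), against 49.8% of tested genes (26.9% higher and 22.8% lower), and all 5 passed under each of the 18 alternatives. The libraries of 6 members did not overlap, 4 wholly higher and 2 wholly lower, against 60% of all genes.

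**Figure D3:**
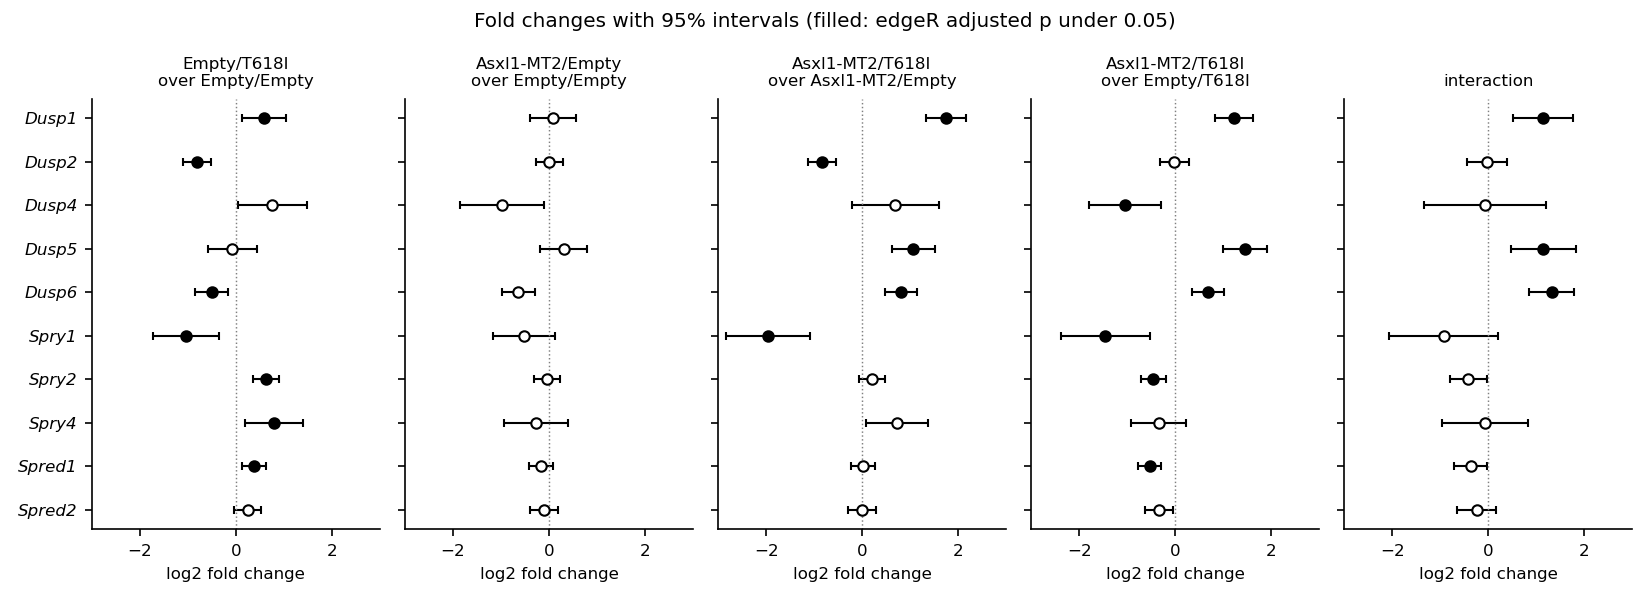
Log2 fold changes (x axis) of the 10 genes (rows) in 4 comparisons and for the interaction, with bars for 95% intervals and filled points for edgeR adjusted p under 0.05. Dusp1, Dusp5 and Dusp6 are filled and to the right in both comparisons of Asxl1-MT2/T618I and in the interaction, and no point is filled for Asxl1-MT2/Empty over Empty/Empty.

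The T618I difference could be set side by side in the 2 backgrounds because these comparisons share no library. For Dusp2 it was -0.83 with and -0.81 without truncated Asxl1, for Spry4 0.73 and 0.79, and for Dusp4 0.70 and 0.76. Dusp1, Dusp5 and Dusp6 had 1.75, 1.07 and 0.81 with it and 0.59, -0.08 and -0.51 without it.

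**Figure D4:**
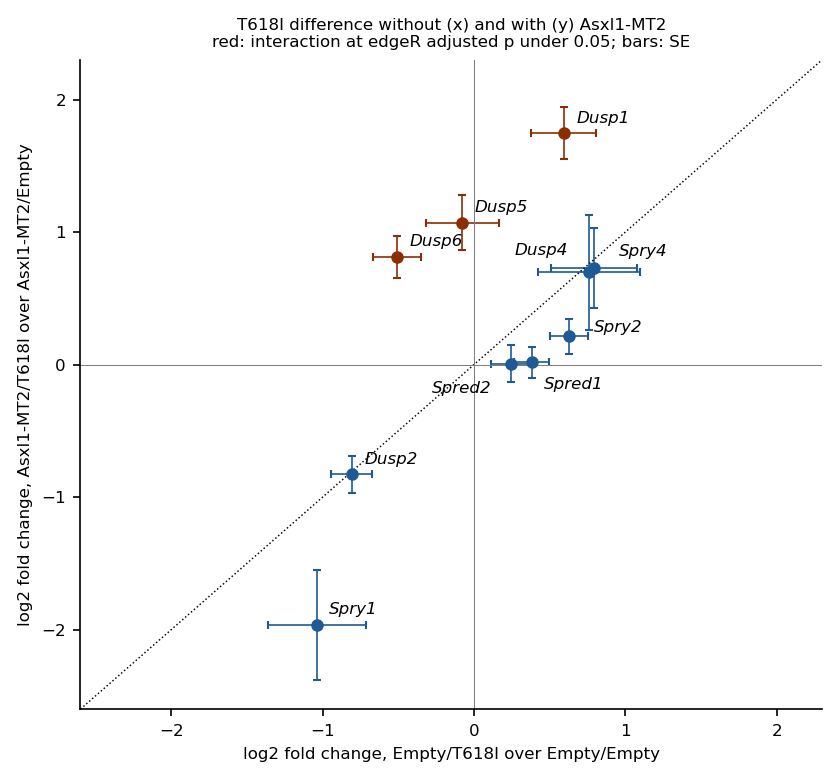
Log2 fold change of each gene with T618I in cells with truncated Asxl1 (y axis) against that in cells with the empty vector (x axis), with SE bars and a dotted line of equal change. Dusp1, Dusp5 and Dusp6, in red, lie above the line with interactions of 1.15, 1.15 and 1.32. Dusp2, Dusp4 and Spry4 lie close to it, with wide intervals for Dusp4 and Spry4, and Spry1, Spry2, Spred1 and Spred2 lie below it.

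Levels of different genes were compared per kilobase of exon, using GENCODE M21 gene models, which may not be the models the counts were made with and, for Dusp1, include the exons of the longer transcript. In Asxl1-MT2/T618I, Dusp6 led at 11.3 ± 2.75 CPM per kb, followed by Spry2 (8.68 ± 1.27), Spred2 (7.77 ± 0.591), Dusp2 (7.06 ± 1.08) and Spred1 (5.94 ± 0.548). Among the first 4, each differed from the next by less than the larger SD of the pair, and Spred1 lay below Dusp2 by slightly more than either SD. Dusp5 (3.63 ± 0.653) and Dusp1 (3.25 ± 0.0224) came next, and Spry4, Dusp4 and Spry1 were at 0.543, 0.434 and 0.192 CPM per kb. In Empty/Empty, Dusp2 led at 12.5 ± 0.688 CPM per kb, ahead of Dusp6 (9.97 ± 0.725), and the same 5 genes stood above the rest, which ran from 0.397 (Spry4) to 1.39 (Dusp5). Exons of Dusp1, Dusp5 and Spry1 overlap a gene on the opposite strand by 11, 547 and 710 bases, and since the strand setting of the counting was not given, reads of such genes cannot be told apart.

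The genes whose pattern was most like that of each member were found by Pearson correlation of log2 CPM over the 12 libraries, which fall into 4 groups, among 9704 other genes. For Dusp1 they were Marcksl1 (r = 0.979) and App (r = 0.9749), for Dusp5 Arid3a (r = 0.963) and Trim12a (r = 0.961), and for Dusp6 Mfap1b (r = 0.907) and Trmt1l (r = 0.906). Marcksl1 averaged 172 CPM in Asxl1-MT2/T618I, 71.9 in Asxl1-MT2/Empty, 95.3 in Empty/T618I and 75.7 in Empty/Empty. The closest to Dusp2 were Prtn3, a serine protease gene of primary granules (r = 0.981), and Ndufa4 (r = 0.98), and the closest to Spry1 were Zfp324 (r = 0.964) and Lrba (r = 0.956). Spry2 was closest to Mt2 and Mns1, Spred1 to Ahctf1 and Ssx2ip, Spry4 to Map4k1 and Actr1b, Dusp4 to Hsd3b7 and Tulp3, and Spred2 to Zdhhc5 and Prkacb, with r from 0.848 to 0.947. The points share their group, so these are descriptions.

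Other phosphatases of MAP kinases rose with T618I in both backgrounds. Of 6 tested genes of the family, 4 rose when T618I was added to Asxl1-MT2 and 3 with T618I alone, and 0 fell in either. Of all tested genes 26.9% were higher and 22.8% lower when T618I was added to Asxl1-MT2, and 17.6% and 15.9% with T618I alone. Dusp16, which acts on JNK and p38, was higher by 2.95 ± 0.292 (edgeR adjusted p = 2.42e-07) and by 1.91 ± 0.266 (edgeR adjusted p = 2.21e-05) in these comparisons, and Dusp3, a small phosphatase of ERK and JNK, by 1.63 ± 0.177 and 1.48 ± 0.184. None of the 6 passed when Asxl1-MT2 was added to T618I, or in the interaction, against 43.9% and 19.6% of all tested genes. Among 8 further regulators of the Sprouty, Spred and RAS-inhibitor kind, 3 rose and 0 fell when T618I was added to Asxl1-MT2, and 2 rose and 1 fell with T618I alone. When Asxl1-MT2 was added to T618I, 2 rose and 1 fell, against 25.4% and 18.5% of all tested genes, so these counts lay near the shares of all genes. Spred3 rose by 1.15 ± 0.231 with T618I added to Asxl1-MT2 and by 0.69 ± 0.246 with T618I alone. Dok2, an adaptor gene that dampens RAS signalling, fell by 0.57 ± 0.150 with T618I alone (edgeR adjusted p = 0.00687) and rose by 1.12 ± 0.147 when Asxl1-MT2 was added to T618I. Dok2 was the 1 gene of the 8 that passed in the interaction, at 0.85 ± 0.205 (edgeR adjusted p = 0.00745). Rasa1, which turns RAS off, rose by 0.48 ± 0.104 with T618I alone and fell by 0.39 ± 0.104 when Asxl1-MT2 was added to T618I. Nf1, named here after its values were seen because it encodes the neurofibromin that Spred proteins recruit, was at 25.8 ± 1.74 CPM in Asxl1-MT2/T618I, 25.5 ± 3.74 in Asxl1-MT2/Empty, 26.7 ± 4.30 in Empty/T618I and 30.0 ± 0.487 in Empty/Empty (SD, n = 3), and passed in no comparison.

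A list drawn up for transcripts induced by ERK also held the transcription factor genes Elk1, Elk3 and Srf. Of its 22 tested genes, 14 rose and 3 fell when T618I was added to Asxl1-MT2, with a median log2 fold change of 0.69. Of all tested genes 26.9% were higher and 22.8% lower in that comparison. With T618I alone 10 of the 22 rose and 2 fell, with a median log2 fold change of 0.30, against 17.6% and 15.9% of all tested genes. Egr1 (45.2 ± 16.4 CPM in Empty/T618I, against 2.53 ± 0.581 in Empty/Empty) and Ier3 (61.1 ± 4.98 against 10.7 ± 1.94) are immediate early genes. When Asxl1-MT2 was added to T618I, 8 rose and 5 fell, against 25.4% and 18.5% of all tested genes. Plaur, the urokinase receptor gene, rose by 1.37 ± 0.110, Mcl1, a survival gene, by 0.84 ± 0.107 and Phlda1 by 1.91 ± 0.261, and Myc fell by 0.86 ± 0.115. Etv5, Etv4 and Lif, named after their values were seen, also had lower levels there. They were at 8.35 to 10.6, 2.89 to 4.70 and 1.96 to 2.61 CPM in Asxl1-MT2/T618I. In Empty/T618I they were at 15.0 to 19.3, 6.47 to 8.46 and 5.58 to 6.47 CPM. For the interaction 8 of 22 passed in the positive and 1 in the negative direction, Plaur, Mcl1, Klf10 and Phlda1 among the positive ones. With Asxl1-MT2 alone the 1 call of the 22 was Etv5, an ETS factor gene controlled by ERK, which fell by 0.86 ± 0.178 (edgeR adjusted p = 0.0166).

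Of 27 tested genes of the RAS-ERK relay itself, 13 rose and 3 fell when Asxl1-MT2 was added to T618I, against 25.4% and 18.5% of all tested genes. When T618I was added to Asxl1-MT2, 17 rose and 3 fell, against 26.9% and 22.8%. With T618I alone 12 rose and 6 fell, against 17.6% and 15.9%. For the interaction 12 passed in the positive and 2 in the negative direction, against 14.1% and 5.51%. Rasgrp4, an activator of RAS in mast cells and granulocytes, was at 256 ± 63.8 CPM in Asxl1-MT2/T618I, 25.8 ± 5.03 in Asxl1-MT2/Empty, 53.0 ± 1.05 in Empty/T618I and 22.7 ± 2.73 in Empty/Empty. Mapk3, which encodes ERK1, was at 280 ± 28.5 CPM in Asxl1-MT2/T618I, 196 ± 13.7 in Asxl1-MT2/Empty, 108 ± 9.04 in Empty/T618I and 184 ± 32.5 in Empty/Empty, with an interaction of 1.28 ± 0.163 (edgeR adjusted p = 5.42e-05). Map2k1, the gene of the kinase MEK1, had an interaction of 0.71 ± 0.132 (edgeR adjusted p = 0.00113). In the p38 and JNK relay 5 of 14 genes rose and 0 fell when Asxl1-MT2 was added to T618I, against 25.4% and 18.5% of all tested genes. Mapk13 and Map3k8 rose there by 2.03 ± 0.208 and 1.17 ± 0.215.

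Most genes of a list of STAT targets, 4 feedback inhibitors (Socs1, Socs2, Socs3 and Cish) and 4 effectors (Pim1, Pim2, Bcl3 and Osm), rose with T618I in both backgrounds. Of 8 such genes 7 rose and 1 fell when T618I was added to Asxl1-MT2, and 7 rose and 0 fell with T618I alone, with medians of 2.42 and 2.10 on the log2 scale. Of all tested genes 26.9% were higher and 22.8% lower when T618I was added to Asxl1-MT2, and 17.6% and 15.9% with T618I alone. Socs3 rose by 4.42 ± 0.121 and 3.70 ± 0.118 in these comparisons. Its interaction of 0.72 ± 0.169 passed (edgeR adjusted p = 0.00623), and Bcl3 was the other gene of the 8 that did, against 19.6% of all tested genes.

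Markers of cell type moved with these groups, and in bulk RNA fewer cells of a type and less RNA per cell cannot be told apart. The summed level of 10 neutrophil markers was 19767 to 27744 CPM in Asxl1-MT2/T618I, 1837 to 2683 in Asxl1-MT2/Empty, 3617 to 4721 in Empty/T618I and 1337 to 2263 in Empty/Empty. All 10 passed in the interaction in the positive direction, as Dusp1, Dusp5 and Dusp6 did, against 14.1% of all tested genes. With T618I alone 7 of the 10 rose and 1 fell, whereas Dusp1 rose, Dusp5 did not pass and Dusp6 fell. Monocyte and macrophage markers also passed there (6 of 7), with sums of 886 to 1208 CPM in Asxl1-MT2/T618I and 488 to 708 in the other groups. Mast cell and basophil markers (14 genes) summed to 3957 to 4387 CPM in Asxl1-MT2/T618I, 1060 to 1128 in Asxl1-MT2/Empty, 3891 to 7283 in Empty/T618I and 1507 to 1677 in Empty/Empty. By group median this is the order of groups seen for Spry2, and for the megakaryocyte and erythroid markers below. With T618I 13 of the 14 rose and 1, Kit, fell in each background, and 0 of 14 passed in the interaction. The 5 primary granule and progenitor markers summed to 13229 to 17658 CPM in Asxl1-MT2/T618I, 36420 to 40745 in Asxl1-MT2/Empty, 15161 to 18055 in Empty/T618I and 32366 to 40996 in Empty/Empty, lower with T618I as Dusp2 was. Most of that sum was Mpo, which averaged 29732 CPM in Empty/Empty. With T618I 4 of the 5 fell in each background, against 22.8% of all tested genes with Asxl1-MT2 and 15.9% without it. The progenitor marker Cd34 was not called with T618I. Cd34 fell instead with Asxl1-MT2 alone, by 0.98 ± 0.145 (edgeR adjusted p = 0.00148). Kit, the mast cell marker that fell, is the receptor for the stem cell factor in the medium. It was at 90.5 ± 14.9 CPM in Asxl1-MT2/T618I, 349 ± 11.7 in Asxl1-MT2/Empty, 105 ± 6.90 in Empty/T618I and 326 ± 24.4 in Empty/Empty. Megakaryocyte and erythroid markers summed to 115 to 159 CPM in Asxl1-MT2/T618I, 34.3 to 37.9 in Asxl1-MT2/Empty, 170 to 257 in Empty/T618I and 50.8 to 64.0 in Empty/Empty. Of 6 tested, 5 rose with T618I in each background, against 26.9% of all tested genes with truncated Asxl1 and 17.6% without it. Gata1 rose by 3.93 ± 0.269 with truncated Asxl1 and 3.25 ± 0.215 without it, and both globin genes of the list were at 0 counts in all libraries. Of the 7 lymphoid markers 2 could be tested, and both moved with T618I, while Cd3e and Ms4a1 were at 0 counts in every library. Il7r, the interleukin 7 receptor gene, rose with T618I in both backgrounds, at 33.7 to 39.5 CPM in Asxl1-MT2/T618I, 0 to 0.2 in Asxl1-MT2/Empty, 46.6 to 90.4 in Empty/T618I and 0 to 0.103 in Empty/Empty. Nkg7, a gene of cytotoxic granules, fell by 1.84 in both (SE 0.130 when T618I was added to Asxl1-MT2 and 0.134 with T618I alone). Of the 6 stromal markers 3 could be tested, of which 1 rose (Col1a1) and 2 fell (Pecam1 and Pdgfrb) when T618I was added to Asxl1-MT2 and 0 passed with T618I alone, and Pdgfra and Cdh5 were at 0 counts in every library. The part of these cell type differences in the levels of the feedback genes was not tested.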

How the data were processed

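Deposited counts per gene symbol from 12 libraries were used. The authors deposited raw counts in 1 table with a column per library. The submitters' processing notes name mm10 as build and list Trimmomatic, STAR and DESeq2, without versions or what each did. The counting tool, annotation and strand setting are not given in the sources used here. Groups came from the titles. Column letters are not tied to title numbers. The members and gene lists were chosen with earlier results of these data known.

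From these counts, 11578 genes were kept by filterByExpr, scaled with TMM factors and fitted with a mean for each of 4 groups with glmQLFit and glmQLFTest (edgeR 4.0.16, R 4.3.3), with Benjamini-Hochberg adjustment over all genes tested. The SE is the log2 fold change divided by the square root of the test's F. The script was tested on simulated data. Alternatives were RLE factors, library totals, no filter on low counts, DESeq2 1.42.0, a block by column letter, no letter C libraries, and each library left out. Named were all members and, from each of 13 lists, up to 4 called genes with the smallest adjusted p in a comparison. Nf1, Elk1, Elk3, Srf and the levels of Etv4, Etv5 and Lif were added after their values were seen. Likeness was measured among genes with a mean of at least 5 CPM, with a prior count of 2. Promoters and gene starts are RefSeq's (GRCm38.p6) and gene models GENCODE's (GRCm38). Motifs were chosen with the promoters in view and searched with Python 3.11.15.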

Additional observations from a re-analysis of the deposited data

Results flagged for a closer look

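The difference that T618I made to Dusp1, Dusp5 and Dusp6 differed between cells with and without truncated Asxl1. The interaction was 1.15 for Dusp1, 1.15 for Dusp5 and 1.32 for Dusp6 on the log2 scale (edgeR adjusted p = 0.0112, 0.0181 and 0.000524). For Dusp6 the T618I difference was 0.81 in Asxl1-MT2 cells and -0.51 in cells with the empty vector. Neutrophil markers passed in the same direction (10 of 10), and their part in these results was not tested. Asxl1 and Csf3r transcripts also differed between groups sharing a construct, and the part of that was not tested either.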

How the results depend on the processing

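Of 22 called member results, 15 held under all 18 alternatives, 7 were lost under some and none changed sign. The members called with T618I alone were 7, and 2 to 7 with a library left out. With Asxl1-MT2 alone, 0 members were called, but 1 with no filter on low counts, 1 by DESeq2, 1 with the replicate block by column letter, 1 with library totals, 2 without the letter C libraries and 0 to 1 with a library left out. Genes called with Asxl1-MT2 alone were 215, but 359 with no filter, 386 without the letter C libraries and 60 to 276 with a library left out (60 without Asxl1-MT2/Empty A, 101, 104 and 136 without Empty/Empty A, B and C, and 106 without Asxl1-MT2/Empty B). The cause was not tested. Whether the letters pair the libraries is not given. Same-letter correlations were over 0.1 for A and C but not B with T618I alone (0.168, 0.0429 and 0.22) and with Asxl1-MT2 alone (0.149, -0.0226 and 0.191), and at most 0.106 in the others. The criterion of all 3 over 0.1 was not met, but that does not show that the letters carry no structure. Csf3r, for example, was lowest in library C in every group. The replicate block left 7 members called with T618I alone and raised the genes called to 4285 from 3878 there and to 2851 from 2273 for the interaction.

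Signs of uncalled members near 0 turned. With Asxl1-MT2 alone, Dusp2 was -0.000561 with no filter and -0.0158 with library totals, and Spry2 was 0.0254 without the letter C libraries. With T618I added to Asxl1-MT2, Spred1 was -0.0876 with library totals, and Spred2 -0.00427 with no filter and -0.0974 with library totals. Leaving out a library gave -0.263 to 0.0923 for Dusp5 with T618I alone. It gave -0.0681 to 0.0817 for Dusp2, -0.142 to 0.0273 for Spry2 and -0.272 to 0.00629 for Spred2 with Asxl1-MT2 alone. With Asxl1-MT2 added to T618I it gave -0.15 to 0.11 for Dusp2 and -0.57 to 0.000628 for Spry4. With T618I added to Asxl1-MT2 it gave -0.0761 to 0.164 for Spred1 and -0.0969 to 0.181 for Spred2. For the interaction it gave -0.14 to 0.10 for Dusp2, -0.43 to 0.22 for Dusp4 and -0.28 to 0.29 for Spry4. Depth limits Spry1 and Dusp4, with 3 to 36 counts a library.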
